A study of Mus musculus with 6 samples.

Results

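The clustered histone genes were examined by the accessibility of the chromatin peaks assigned to them, in organoids grown from the small intestine of young and aged mice. A peak was a member where the deposited annotation named a gene of the Hist1, Hist2, Hist3 or Hist4 cluster and its centre lay at most 10 kb from that gene's transcription start site (TSS). This took 78 of the 156733 consensus peaks, under 51 gene names, and did not use any count. The Hist1 cluster held 60 members, Hist2 14, Hist3 2 and Hist4 2. By the histone type of the gene that the annotation named, 8 members were H1, 8 H2A, 24 H2B, 17 H3 and 21 H4. The authors' annotation placed 34 of them at a promoter, 12 in an exon, 11 at a transcription end, 2 in an intron and 19 between genes. Another 7 histone-named peaks lay beyond 10 kb. Just inside the limit were a peak 9062 bp from Hist1h1a, with a mean of 0.329 CPM (counts scaled for library size), and one 8370 bp from Hist1h1e, with 2.30 CPM. Just outside were peaks 10426 bp from Hist4h4, with 8.93 CPM, and 11715 bp from Hist1h4d, with 9.72 CPM.

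Histones package DNA into nucleosomes, in which pairs of H2A, H2B, H3 and H4 form the core and the linker histone H1 binds where the DNA enters and leaves. The genes of the clusters are present in many copies, have no introns in most cases, and are transcribed mainly while DNA is replicated, so that new DNA can be packaged. Their transcripts end in a stem-loop in place of a poly(A) tail, and they are made at a nuclear structure called the histone locus body. The intestinal epithelium renews itself from rapidly dividing crypt cells, and organoids keep this division in culture.

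ATAC-seq reports open chromatin through the insertion of adapters by the transposase Tn5. All mice were C57BL/6JRj, and no culture was treated. Young mice were 2 to 3 months old and aged mice 20 to 22 months old, with 3 libraries per age. Organoids were cultured for 3 to 5 weeks, and replicates 1, 2 and 3 of each age were at passage 4, 3 and 2. The labels do not say that libraries of one age came from separate animals, so the tests rest on a spread between libraries that may be technical. Over the whole table the libraries held 7278161 (Young replicate 1) to 26093521 counts, of which the members took 0.156% to 0.203%. Of 14 epithelial marker genes 10 had a peak within 1 kb of the TSS, with a median of 44.4 CPM, against 6 of 16 immune, stromal, endothelial and glial markers, with a median of 2.84 CPM. The peaks of this second list summed to 30.9 to 37.3 CPM in the young libraries and 33.3 to 38.0 CPM in the aged ones, mainly from Pdgfra (mean 19.3 CPM) and Gfap (7.996 CPM). Cd3e, Itgam, Csf1r, Pecam1 and Cdh5 had no promoter peak, and Ptprc was not found in the annotation. Of the epithelial list, Vil1, Krt19, Muc2 and Elf3 had none either.

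The sequences before the start sites show what these promoters are made of. They come from RefSeq on GRCm38.p6, run 5′ to 3′, and carry capitals at 4 motifs searched on both strands: CCAAT, the CCAAT box; TATAAA, the TATA box; TTTGCAT, most of the octamer known from H2B promoters; and AAACACA, the H1 box. All 51 member names matched a RefSeq gene. The first stretch is the whole interval between the start sites of Hist1h2ah, an H2A gene on the minus strand, and Hist1h2bk, an H2B gene on the plus strand (chr13:22035644-22035820, plus strand), and it shows how 1 peak can cover 2 promoters. The next ones are a leading promoter by level per kb for each of the other types, with Hist1h2af as an H2A gene outside the divergent pairs: Hist1h1c (chr13:23738657-23738806, plus), Hist1h2bh (chr13:23543445-23543594, minus), Hist1h3g (chr13:23535268-23535417, plus), Hist1h4h (chr13:23530944-23531043, plus) and Hist1h2af (chr13:23533725-23533874, plus). Each gives 150 bases, or 100 for Hist1h4h, up to the base before the start site, and each overlaps a member peak.
Hist1h2ah-Hist1h2bk interval: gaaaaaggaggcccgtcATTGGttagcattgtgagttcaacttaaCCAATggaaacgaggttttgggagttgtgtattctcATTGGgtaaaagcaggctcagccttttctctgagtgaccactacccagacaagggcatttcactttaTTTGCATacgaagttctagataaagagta
Hist1h1c: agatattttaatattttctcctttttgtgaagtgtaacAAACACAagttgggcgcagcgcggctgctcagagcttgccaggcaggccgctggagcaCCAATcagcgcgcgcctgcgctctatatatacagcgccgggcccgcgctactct
Hist1h2bh: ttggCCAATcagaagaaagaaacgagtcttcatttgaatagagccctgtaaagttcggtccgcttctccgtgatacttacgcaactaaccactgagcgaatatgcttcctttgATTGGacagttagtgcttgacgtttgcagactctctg
Hist1h3g: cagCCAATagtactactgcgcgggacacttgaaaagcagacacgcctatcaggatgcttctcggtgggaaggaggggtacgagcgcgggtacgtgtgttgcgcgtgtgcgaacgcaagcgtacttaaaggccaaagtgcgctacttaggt
Hist1h4h: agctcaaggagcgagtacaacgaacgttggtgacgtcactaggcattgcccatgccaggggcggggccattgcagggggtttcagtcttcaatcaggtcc
Hist1h2af: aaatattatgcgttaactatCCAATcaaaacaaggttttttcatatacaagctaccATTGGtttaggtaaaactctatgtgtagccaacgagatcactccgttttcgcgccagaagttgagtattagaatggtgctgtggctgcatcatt

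The interval of the divergent pair holds 3 CCAAT boxes, on both strands, and an octamer part 29 bases before the Hist1h2bk start. The Hist1h1c stretch has an H1 box 112 bases and a CCAAT box 54 bases before the start, while the Hist1h4h stretch holds none of the 4 motifs. Windows of 300 bases, from 250 before to 50 after the start, were available for 62 of 70 clustered histone genes (63 windows). CCAAT was found in 54 of the 63 windows (85.7%) against 37.4% of all 32851 promoter windows, and in every H1, H2A, H2B and H3 window but only 3 of 12 H4 windows. TATAAA was in 35 (55.6%, against 13.6% of all windows) and TTTGCAT in 15 (23.8%, against 4.63%), 7 of them H2B and 7 H2A windows. AAACACA was in 9 (14.3%, against 7.18%), among them 5 of the 6 H1 windows, always between 112 and 122 bases before the start. Divergent neighbours share bases of their windows, so these counts are not independent, and a match of letters is not a measured binding site.

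The typical histone promoter peak was more accessible per kb than the typical coding promoter peak. The 51 members within 1 kb of a TSS had a median level of 36.2 CPM per kb of peak over the 6 libraries, against 21.2 for the 11652 tested peaks within 1 kb of a protein-coding TSS (quartiles 8.98 and 39.0). Their median width was 786 bp, against 732 bp. Of the 51, 23 lay above the upper quartile of coding promoters and 4 below the lower one. Per kb, the level was highest at a 233 bp peak 941 bp from the Hist2h4 start (78.9 CPM per kb). The annotation classed this peak as an exon, but it overlapped no RefSeq gene. Next came Hist1h2bh (73.3), Hist1h3g (72.1), Hist1h4h (65.3) and Hist1h2bj (62.6). The lowest were Hist2h3c1 (3.88 CPM per kb) and Hist2h3c2 (5.72), an almost duplicated pair of H3 genes. By type the median was 37.5 CPM per kb for H1, 29.4 for H2A, 42.7 for H2B, 29.4 for H3 and 36.7 for H4, and the ranges of all 5 types overlapped. CPM here are counts over library totals scaled by TMM factors.

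**Figure D1:**
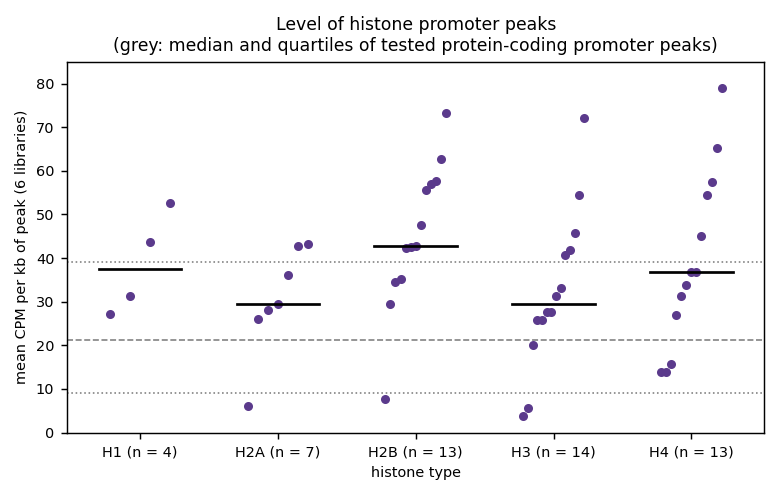
Mean CPM per kb of peak over the 6 libraries (vertical axis) for each of the 51 members within 1 kb of a TSS, by histone type. Black bars are type medians, and grey lines mark the median (21.2) and quartiles (8.98 and 39.0) of the tested peaks within 1 kb of a protein-coding TSS. Of the histone promoters, 23 lie above the upper quartile and 4 below the lower one.

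Of 70 clustered histone genes in RefSeq, 62 had a promoter window and 55 of these had their start site inside a peak, 53 in a member. The other two, Hist2h2ab and Hist2h2ac, share a peak that the annotation names after AC125099.2 (62.4 CPM, log2 fold change -0.02). The start sites of Hist1h2bq, Hist1h2br, Hist1h2ao, Hist1h2ap, Hist1h1t, Hist1h2ba and Hist1h2aa lay in no peak. Among these, Hist1h2bq and Hist1h2br have identical windows (100%), so reads there cannot be assigned to one copy. The windows of Hist1h4m and Hist1h4n were 99% identical and those of Hist2h3c1 and Hist2h3c2 90.2%, and the counts of these 4 genes are uncertain for the same reason. The labels and file headers used here do not state how reads with several matches were handled. All other windows had at most 90% identity to any other histone window, aligned over their full length. The windows are fixed on annotated starts, so a shifted start lowers this identity between like copies. Those of Hist2h2aa1 and Hist2h2aa2 (75.6%) hold CCAAT boxes at -55 and -26 bases and at -15 and 14 bases. Those of Hist1h4j and Hist1h4k were 87.6% identical. Counts of these pairs may be uncertain too.

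The study asked how accessibility differs between aged and young organoids. At the clustered histone genes 1 of the 77 members that could be tested was called at an adjusted p under 0.05, a peak near the testis gene Hist1h2ba that was higher in aged organoids, and none was lower. Over all peaks, 1.13% of the tested peaks were called (0.619% higher, 0.51% lower), or 1491 of 132055, and 3523 with the replicate number as a block, which left the member count at 1. Members with an unadjusted p under 0.05 numbered 5 (6.49%, against 9.71% of all tested peaks). The 51 members within 1 kb gave no call, against 1.26% of tested coding promoter peaks, and 1 unadjusted p under 0.05. DESeq2 called the same single member. The untested member was the Hist1h1a peak at 9062 bp, which fell under the filter on low counts.

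Most histone peaks had slightly lower values in aged organoids, by less than the libraries of one age differed among themselves. The log2 fold change of aged over young was negative at 54 of 77 members (70.1%), against 51.96% of all tested peaks and 40.5% of coding promoter peaks. The median was -0.09 over the members, -0.08 within 1 kb and -0.13 from 1 to 10 kb, against -0.01 over all peaks and 0.03 over coding promoter peaks. All 3 aged libraries lay below all 3 young ones at 5 members (6.49%, against 7.09% of all tested peaks) and above them at 1 (1.30%, against 7.66%). The median was 0.00 without Young replicate 1 and -0.20 without Young replicate 2, so its size turns on these young libraries. Without Young replicate 2, 2 promoters were also called lower, against 0.621% of all tested peaks: Hist1h3b (log2 -0.45, adjusted p = 0.0286) and Hist1h2bb (log2 -0.29, adjusted p = 0.0481). The median SE was 0.13 on the log2 scale, from a test that shares information on variance among peaks. It rests on a spread between libraries that may be technical, so the bounds that follow may be too narrow. The log2 fold change with 2 SE on either side stayed inside a 2-fold change at 74 of 77 members, and inside a 1.5-fold change at 48 of the 51 within 1 kb. In bulk samples a smaller share of cells with an open site and a less open site in each cell cannot be told apart.

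**Figure D2:**
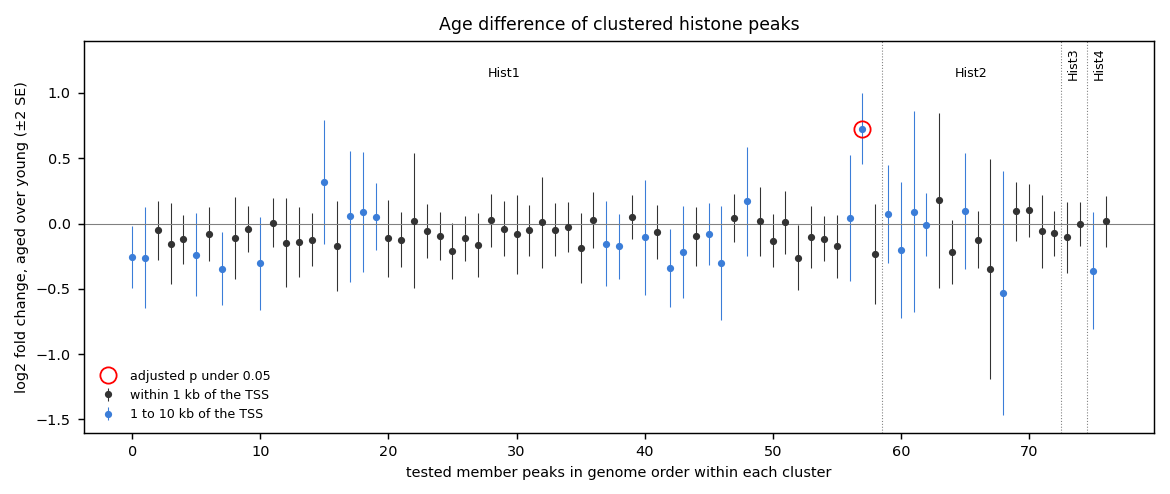
Log2 fold change of aged over young with 2 SE on either side (vertical axis) for the 77 tested members in genome order within each cluster. Black points lie within 1 kb of the TSS and blue points 1 to 10 kb from it, and the red ring marks the 1 called peak, near Hist1h2ba (log2 0.73).

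Summed over all members, accessibility was 2079, 1529 and 1872 CPM in Young replicates 1, 2 and 3 and 1752, 1612 and 1799 CPM in Aged replicates 1, 2 and 3. The mean was 1826 ± 278 CPM (SD, n = 3) in young and 1721 ± 97.1 CPM (SD, n = 3) in aged organoids. All 3 aged sums thus fell inside the young range, and the log2 ratio of the means was -0.09.

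The cluster sums followed the same order of libraries. Hist1 on chromosome 13, which holds most of the genes, gave 1787, 1298 and 1604 CPM in Young replicates 1 to 3 and 1495, 1368 and 1537 CPM in Aged replicates 1 to 3 (log2 ratio -0.09). Hist2 on chromosome 3 gave 203, 155 and 186 CPM in young and 176, 167 and 181 CPM in aged libraries (-0.06). The Hist2 sums leave out the peak over the Hist2h2ab and Hist2h2ac starts (mean 62.4 CPM), because the annotation names it after AC125099.2. In both clusters the aged sums lay between the lowest and highest young ones. The 2 peaks of Hist3 on chromosome 11 summed to 52.1, 46.9 and 50 CPM in young and 48.6, 47.9 and 49.2 CPM in aged libraries (-0.03). The 2 peaks of Hist4 on chromosome 6 summed to 36.2, 28.4 and 30.9 CPM in young and 32.1, 29.7 and 31.5 CPM in aged libraries (-0.04). Both small clusters also had every aged sum inside the young range.

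By histone type, the summed log2 ratio of aged over young was -0.05 for H1, -0.13 for H2A, -0.08 for H2B, -0.11 for H3 and -0.08 for H4. Type follows the assigned gene name, so it does not separate all promoters. Of the 7 peaks over an H2A and an H2B start, all but that of Hist1h2ah count as H2B. The starts of Hist1h1e and Hist1h4a lie in peaks named after an H2B and an H3 gene. A start of Hist1h2be lies in a peak named after Hist1h4d. The H2A sums were 209, 157 and 189 CPM in Young replicates 1 to 3 and 170, 163 and 176 CPM in Aged replicates 1 to 3. They leave out the peak over the starts of the H2A genes Hist2h2ab and Hist2h2ac (mean 62.4 CPM). The H3 sums were 317, 251 and 306 CPM in young and 281, 249 and 280 CPM in aged libraries. For H1, H2A, H2B and H4 the aged sums lay inside the young range, and for H3 Aged replicate 2 lay just below Young replicate 2. In no type or cluster did the ages separate.

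**Figure D3:**
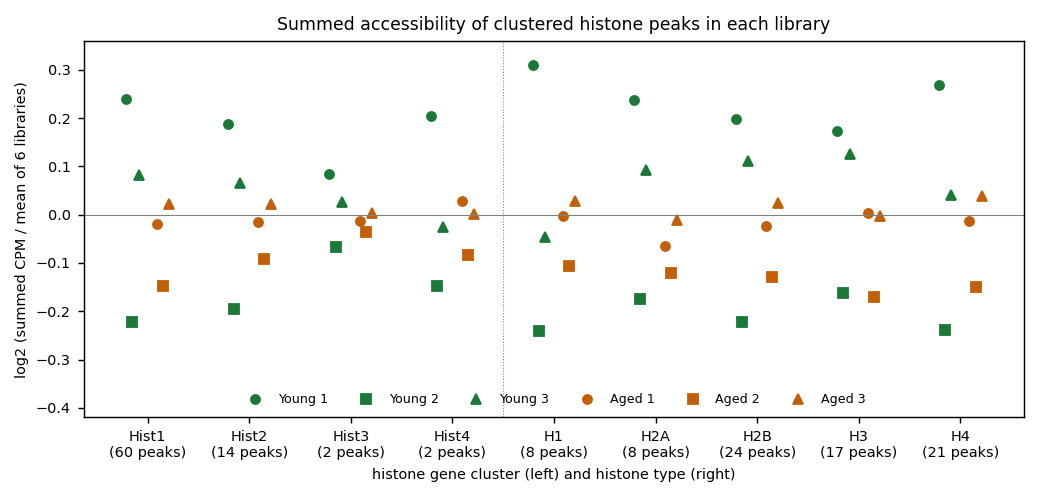
Summed CPM of the members of each cluster (left) and each histone type (right), as log2 of the ratio to the mean of the 6 libraries (vertical axis). Green symbols are young and orange symbols aged libraries, with shapes for replicates 1, 2 and 3. Young replicate 1 is the highest and a replicate 2 library the lowest in every column.

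Many of the histone promoters shared an order of libraries. Young replicate 1 was the highest of the 6 libraries at 37 of the 51 members within 1 kb (72.5%), against 20.9% of tested coding promoter peaks. Young replicate 2 was the lowest at 31 (60.8%), against 15.2%. Replicate 2 was the lowest of the 3 libraries in both ages at 41 of the 51 (80.4%), against 12.6% of coding promoter peaks, 14.1% of all tested peaks and 7 of the 27 members at 1 to 10 kb (25.9%). These are counts over peaks that share libraries, with no test.

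The order was clearer in some types than in others. Young replicate 1 was highest at 4 of 4 promoters of H1, 6 of 7 of H2A, 11 of 13 of H2B, 6 of 14 of H3 and 10 of 13 of H4. Young replicate 2 was lowest at 3, 4, 10, 4 and 10 of these. H3 departed from the order, with Young replicate 3 highest at another 6 of 14 and Aged replicate 2 lowest at 8 of 14. The median SD of log2 CPM over young libraries was 0.25 at members within 1 kb, against 0.15 at coding promoter peaks, and over aged libraries it was 0.11, against 0.09. At 32 of the 51 (62.7%) all 3 aged libraries lay inside the young range, against 28.6% of coding promoter peaks. Young replicate 1 was also the shallowest library, and replicate 2 of both ages was at passage 3 and, by the titles, shared a culture code. Promoter peaks of 16 S phase genes summed to 687, 663 and 640 CPM in Young replicates 1 to 3 and 680, 672 and 674 CPM in Aged replicates 1 to 3, with Young replicate 1 highest and Young replicate 3 lowest. Those of 10 epithelial markers summed to 507, 442 and 468 CPM in young and 489, 488 and 496 CPM in aged libraries. Young replicate 1 was again the highest and Young replicate 2 the lowest, while Aged replicates 1 and 2 were nearly equal. Those of histone genes outside the clusters summed to 371, 354 and 368 CPM in young and 370, 365 and 374 CPM in aged libraries, with replicate 2 lowest at both ages. Other lists differed. Unlike at the histone promoters, Aged replicate 2 was the highest aged library for the histone locus body list (455 CPM) and the histone chaperones (524 CPM). Replicate 2 was highest at both ages for the immune, stromal, endothelial and glial markers (37.3 and 38.0 CPM). Parts of the order thus appeared in some lists outside the clusters and not in others. Passage, culture code and replicate number cannot be told apart here, and the part of depth was not tested.

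**Figure D4:**
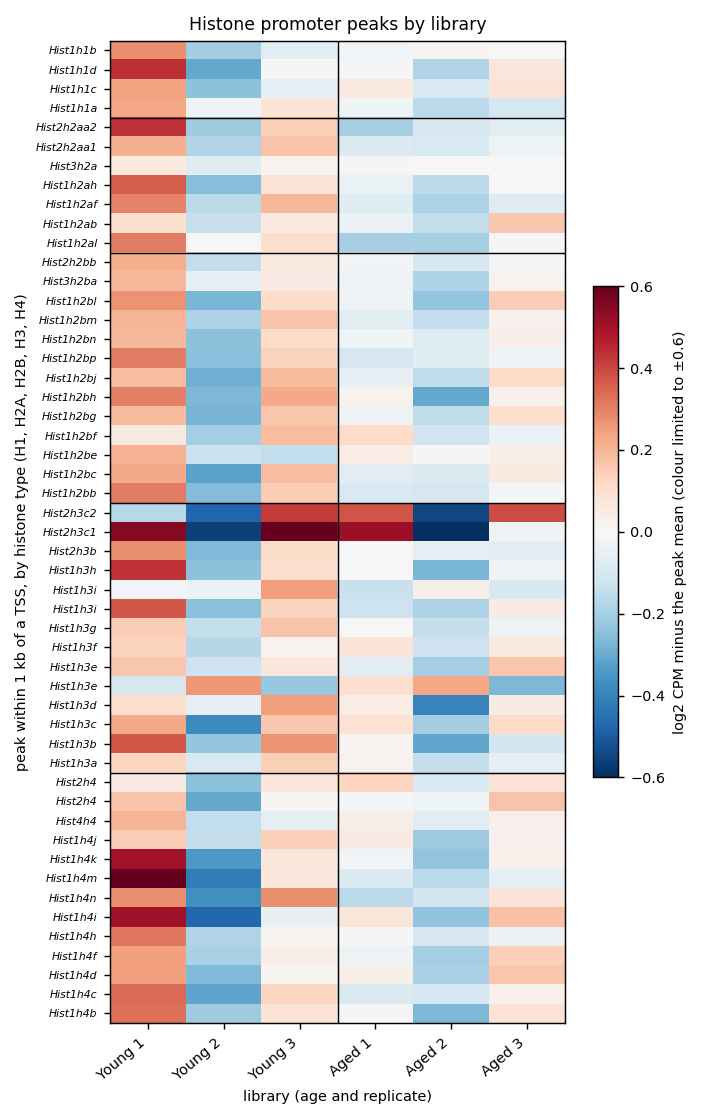
Log2 CPM of each of the 51 members within 1 kb of a TSS (rows, by histone type) in each library (columns), minus the mean of that peak over the 6 libraries. Colours are limited to ±0.6. The Young 1 column is red (high) and the Young 2 and Aged 2 columns blue (low) in most rows, with Hist1h3e at -927 bp among the exceptions.

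Among the H1 genes, which encode the linker histone, Hist1h1c had the most counts (chr13:23738716-23740098, in its exon). Its level was 85.5, 61.1 and 69.8 CPM in Young replicates 1 to 3 and 75.2, 68.0 and 76.9 CPM in Aged replicates 1 to 3. The groups overlapped, with a log2 fold change of 0.04 (SE 0.09, adjusted p = 0.94). The start site of Hist1h1e lay in the broad peak of the H2B gene Hist1h2be, 1941 bp wide, which had 78.5, 62.1 and 61.4 CPM in young and 70.1, 67.3 and 69.8 CPM in aged libraries (log2 0.05, SE 0.08). All aged values of that peak also fell inside the young range. Hist1h1a, by contrast, was 1 of the 5 members with all aged below all young libraries, noticed after the values were seen. Its promoter had 16.14, 13.54 and 14.56 CPM in young and 13.5, 12.34 and 12.81 CPM in aged libraries (log2 -0.17, SE 0.12, adjusted p = 0.70).

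H2A and H2B genes lie mostly in head-to-head pairs, so that 1 peak covers both promoters. In 7 members 2 start sites on opposite strands fell inside the peak, 164 to 249 bp apart, and each joined an H2A with an H2B gene. The pairs were Hist1h2ah with Hist1h2bk, Hist1h2ad with Hist1h2bf, Hist1h2ae with Hist1h2bg, Hist1h2ag with Hist1h2bj, Hist1h2ai with Hist1h2bl, Hist1h2ak with Hist1h2bn, and Hist1h2an with Hist1h2bp. Their log2 fold changes ran from -0.12 to -0.03 and none was called. The peak over Hist1h2ah and Hist1h2bk, whose interval is printed above, had the most counts of the peaks under an H2A name. It gave 69.8, 45.4 and 57.5 CPM in Young replicates 1 to 3 and 52.7, 48.7 and 54.3 CPM in Aged replicates 1 to 3 (log2 -0.12, SE 0.11, adjusted p = 0.79). The pair at Hist1h2bj gave 62.2, 44.8 and 62.3 CPM in young and 52.7, 49.2 and 59.1 CPM in aged libraries (log2 -0.06, SE 0.10). In both pairs the aged libraries lay between the lowest and the highest young one.

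Single H2A and H2B promoters gave like values. Hist1h2bh, the densest H2B peak per kb, had 49.0, 32.9 and 46.4 CPM in Young replicates 1 to 3 and 40.2, 32.0 and 40.4 CPM in Aged replicates 1 to 3 (log2 -0.16, SE 0.12, adjusted p = 0.74). Hist1h2af, an H2A gene, had 28.4, 20.6 and 26.5 CPM in young and 22.0, 20.2 and 21.9 CPM in aged libraries (log2 -0.21, SE 0.11, adjusted p = 0.55). In both genes the lowest library was Aged replicate 2, with Young replicate 2 next to it. Hist1h2al, listed by the annotation as a protein-coding gene far from the rest of Hist1, had all aged libraries below all young ones. Its levels were 2.86 to 3.26 against 3.29 to 4.07 CPM (log2 -0.24, adjusted p = 0.77). In RefSeq its peak overlaps H2af-ps2, a pseudogene by its name, and holds no start site with a promoter window.

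Among the 10 members with the smallest p, 5 lay 3186 to 6096 bp downstream of the start of an H2B gene, and of these all but the Hist1h2ba peak missed the threshold. This was noticed after the values were seen, and H2B peaks at 1 to 10 kb made up 11 of the 77 tested members, 4 of them with positive log2 fold changes. At 3235 bp from Hist1h2bc the level was 12.8, 10.1 and 15.9 CPM in young and 11.6, 8.32 and 10.6 CPM in aged libraries (log2 -0.34, SE 0.15, adjusted p = 0.44). At 5465 bp from Hist1h2bl it was 15.3, 16.8 and 13.6 CPM in young and 13.0, 12.8 and 12.5 CPM in aged libraries (log2 -0.26, SE 0.12, adjusted p = 0.47). This last peak overlaps the RefSeq tRNA genes n-TGgcc7 and n-TMcat7 and no histone gene. The groups overlapped near Hist1h2bc and did not overlap near Hist1h2bl. The peak 6096 bp from Hist1h2bm also had all aged below all young libraries (log2 -0.24, adjusted p = 0.69), while that 5718 bp from Hist1h2bn overlapped (log2 -0.30, adjusted p = 0.62).

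H3 and H4 form the central part of the nucleosome core. Hist1h3g had the most counts of the H3 peaks, with 62.5, 51.1 and 63.6 CPM in Young replicates 1 to 3 and 56.5, 51.1 and 55.2 CPM in Aged replicates 1 to 3 (log2 -0.11, SE 0.09, adjusted p = 0.75). Hist1h3b had the smallest unadjusted p of the promoters, 0.047, with 25.7, 16.9 and 23.9 CPM in young and 20.0, 16.0 and 18.3 CPM in aged libraries (log2 -0.26, SE 0.13, adjusted p = 0.50). In both H3 genes Young replicate 2 overlapped the aged libraries. Hist1h4h had the most counts of the H4 peaks, at 76.9, 54.5 and 62.5 CPM in young and 61.3, 57.6 and 60.4 CPM in aged libraries (log2 -0.09, SE 0.09, adjusted p = 0.82). The peak 5335 bp from Hist1h4j did not overlap between the ages, with 9.26, 9.38 and 9.02 CPM in young and 7.64, 7.21 and 6.95 CPM in aged libraries. Its log2 fold change was -0.34 (SE 0.14, adjusted p = 0.36), the second smallest p of the members.

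The members of the Hist2 cluster spanned 44.7 kb, and none of the 14 was called. Hist2h2bb, an H2B locus that the annotation lists as a lincRNA, had the most counts of these 14, with 59.9, 46.6 and 53.95 CPM in Young replicates 1 to 3 and 51.2, 48.4 and 51.2 CPM in Aged replicates 1 to 3 (log2 -0.07, SE 0.09). The H2A genes Hist2h2aa1 and Hist2h2aa2 had promoter means of 20.7 and 18.5 CPM and log2 fold changes of -0.12 (SE 0.11) and -0.22 (SE 0.12, adjusted p = 0.60). The H4 gene Hist2h4 had positive values at its promoter (log2 0.10, SE 0.10) and at the peak 941 bp from its start (log2 0.10, SE 0.11). Hist2h3b, an H3 gene, had a log2 fold change of -0.06 (SE 0.14). All of these overlapped between the ages. The 3 peaks near Hist2h2be, 4609, 5809 and 7896 bp from its start, had 0.67 to 3.88 CPM and log2 fold changes of 0.07, -0.20 and 0.09. A further distant peak, at -1432 bp from Hist2h2aa1, had 2.59 CPM and a log2 fold change of 0.10 (SE 0.22). The peak over the Hist2h2ab and Hist2h2ac starts, named after AC125099.2, had a higher mean than any Hist2 member (62.4 CPM) but was not a member.

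The Hist2h3c1 and Hist2h3c2 promoters had the lowest levels per kb, and are shown because their sequences are close to each other and rich in G and C. The 150 bases before each start, chr3:96246535-96246684 on the plus strand and chr3:96239128-96239277 on the minus strand, hold none of the 4 motifs. Both windows do hold a CCAAT box after the annotated start, by 29 bases in Hist2h3c1 and 14 in Hist2h3c2.
Hist2h3c1: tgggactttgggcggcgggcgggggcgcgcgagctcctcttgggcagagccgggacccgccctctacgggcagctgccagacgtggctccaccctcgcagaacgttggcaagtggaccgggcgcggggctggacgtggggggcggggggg
Hist2h3c2: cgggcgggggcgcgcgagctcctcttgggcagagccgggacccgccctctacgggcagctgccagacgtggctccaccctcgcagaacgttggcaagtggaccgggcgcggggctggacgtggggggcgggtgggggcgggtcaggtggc
Counts at these promoters were low, at 7, 12 and 22 in Young replicates 1 to 3 and 21, 6 and 17 in Aged replicates 1 to 3 for Hist2h3c1. For Hist2h3c2 the young libraries held 6, 18 and 24 counts and the aged ones 27, 14 and 32. Their log2 fold changes of -0.35 (SE 0.42) and 0.18 (SE 0.34) were smaller than their standard errors, and a difference was not detectable at this depth. The other peaks of the pair lay 4541 bp from Hist2h3c1 (0.50 CPM, log2 -0.53, SE 0.47) and 1349 bp from Hist2h3c2 (12.8 CPM, log2 -0.01, SE 0.12).

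The small clusters were close to even. Hist3h2a, an H2A gene, had 40.8, 37.4 and 39.8 CPM in Young replicates 1 to 3 and 39.0, 39.3 and 39.3 CPM in Aged replicates 1 to 3 (log2 0.00, SE 0.08). Hist3h2ba, its H2B neighbour, had 11.2, 9.49 and 10.2 CPM in young and 9.64, 8.64 and 9.98 CPM in aged libraries (log2 -0.11, SE 0.14). Hist4h4, the only gene of Hist4, had 33.4, 26.2 and 27.8 CPM at its promoter in young and 29.7, 27.7 and 29.6 CPM in aged libraries (log2 0.02, SE 0.10). All 3 genes overlapped between the ages, as did the peak 6255 bp from Hist4h4 (log2 -0.36, SE 0.22, adjusted p = 0.66).

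The 1 called member lay 3186 bp downstream of the start of Hist1h2ba, at chr13:23930594-23931346, between genes by the authors' annotation. Hist1h2ba encodes an H2B variant of the testis. The peak held 71, 187 and 163 counts in Young replicates 1 to 3 and 299, 311 and 339 counts in Aged replicates 1 to 3, or 9.97, 7.07 and 8.597 CPM against 13.6, 14.4 and 13.2 CPM. Every aged library was above every young one, with means of 8.54 ± 1.45 (SD, n = 3) and 13.7 ± 0.61 CPM (SD, n = 3). The log2 fold change was 0.73 (SE 0.14, adjusted p = 0.0018). Over 14 alternatives it ran from 0.59 to 0.81 with adjusted p from 4.1e-06 to 0.0229, and it was called in all of them.

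No neighbouring peak passed the test. Within 200 kb on either side lay 56 other peaks, 45 of them tested, with 0 called higher and 0 lower. Their log2 fold changes ran from -0.72 to 0.57 with a median of -0.10. The start site of Hist1h2ba itself lay in no peak, nor did that of Hist1h2aa, the testis H2A gene 280 bp from it in the opposite direction, nor that of the testis H1 gene Hist1h1t. The 150 bases before the Hist1h2ba start (chr13:23934157-23934306, minus strand) are shown as the histone promoter nearest to the called peak. They lie outside it, in the span of the lncRNA gene Gm33516, and hold 2 CCAAT boxes, a TATA box and an H1 box.
Hist1h2ba: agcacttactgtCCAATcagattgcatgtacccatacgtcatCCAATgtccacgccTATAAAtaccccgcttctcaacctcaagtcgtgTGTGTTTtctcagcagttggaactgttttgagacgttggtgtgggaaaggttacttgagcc

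**Figure D5:**
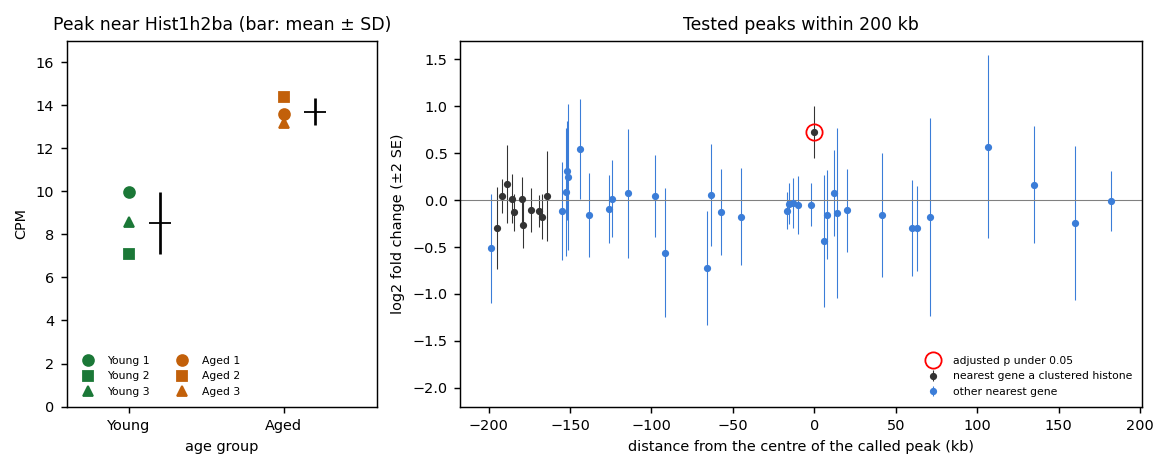
Left, CPM of the peak 3186 bp from Hist1h2ba in each library, with the mean and SD of each age beside the points. All 3 aged libraries (13.2 to 14.4) lie above all 3 young ones (7.07 to 9.97). Right, log2 fold change with 2 SE on either side of every tested peak within 200 kb, by distance from the centre of the called peak (ringed).

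Hist1 falls into blocks where neighbouring member peaks lie more than 500 kb apart. The first (chr13:21710005-22043652) held 24 members, with a median log2 fold change of -0.12 and none called. The second (chr13:23530902-23931346) held 35 members, with a median of -0.09 and the Hist1h2ba peak called. Hist1h2al alone made the third. Other genes lie between the histone genes. In the first block 30 peaks had another nearest gene, of which 28 were tested and 3 were lower in aged organoids, against 0.51% of all tested peaks. They were named after AL589879.2 (log2 -1.72, adjusted p = 1.3e-05), Zfp184 at -7927 bp (log2 -1.46, adjusted p = 4.4e-07) and Mir1983 (log2 -0.80, adjusted p = 0.0288). None of the 24 histone members among them was called. In the second block 32 peaks lay between, and none of the 26 tested was called.

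Genes that act on histones or their transcripts had no called promoter either. Of the histone locus body and mRNA processing list 13 of 18 genes had a tested peak within 1 kb, with a median log2 fold change of -0.02. Slbp, which binds the stem-loop of histone mRNA, had 70.4 ± 0.93 CPM (SD, n = 3) in young and 74.7 ± 0.68 CPM (SD, n = 3) in aged libraries (log2 0.08, adjusted p = 0.80), with all aged above all young values. Casp8ap2 (FLASH), a part of the histone locus body, had a log2 fold change of -0.01 (SE 0.08) and Hinfp, a regulator of H4 genes, of -0.02 (SE 0.08). Npat, which drives histone transcription at that body, was not found in the annotation. Of the histone chaperones 14 of 25 genes were tested, with a median of -0.01, and of the S phase genes 16 of 24, with a median of 0.04 and 1 unadjusted p under 0.05. Of 18 histone genes outside the clusters, 9 were tested, with a median of 0.01. H3f3b, one of the genes of H3.3, gave 0.03, H2afx -0.02 and H2afz 0.13, and H3f3a was not found in the annotation. The list of testis histone genes had no promoter peak.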

How the data were processed

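The authors deposited unnormalised counts for each of 6 libraries over consensus peaks (made with featureCounts 2.0.1, per the file headers) and an annotation of these peaks on GRCm38 with the nearest TSS. Per the submitters' processing notes, the tools also included BWA 0.7.17-r1188, MACS2 2.2.7.1, FastQC 0.11.9, Picard 2.23.1, Trim Galore 0.6.4, deepTools 3.4.3, SAMtools 1.10, MultiQC 1.9, bedtools 2.29.2 and R 3.6.2. Those sources do not state how duplicates, the Tn5 offset and reads with several matches were treated. Reads without molecular identifiers are not independent molecules. Printed starts are 1-based.

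All 132055 peaks kept by filterByExpr (minimum count 10) were fitted in edgeR 4.0.16 (R 4.3.3) with TMM factors and the robust quasi-likelihood F test, aged over young, in all 6 libraries with no block. Adjusted p-values (Benjamini-Hochberg) run over every tested peak, and a peak was called under 0.05. The fit was tested on simulated counts. Alternatives were RLE factors, library totals, no filter, a minimum count of 30, DESeq2 1.42.0, no robust estimation, the replicate number as a block, thinning, leaving out each library, and members within 1000 or 5000 bp. Summed CPM, medians and motif counts are descriptions with no test. Identity between promoter windows came from pairwise alignment.

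The numbers were taken to pair libraries because same-numbered titles share a culture code and a passage, although the descriptions give 1 and the same culture code for all 6 libraries. Deviations from the age means correlated within pairs at r = 0.074, 0.126 and 0.144, and every young library was closest to the aged one of its number. These values are small, and deviations from a mean of 3 libraries are not independent of each other. They are therefore weak evidence for the pairing.

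Named members were the called ones, the 10 smallest p-values, the 5 densest promoter peaks, the peak with the most counts of each cluster and type, all of Hist2, Hist3 and Hist4, and the testis genes. The members and gene lists were chosen with earlier results of these data known.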

Additional observations from a re-analysis of the deposited data

How the results depend on the processing

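Over all peaks the 1491 calls became 901 with DESeq2, 3523 with the replicate block, 613 with libraries thinned to the shallowest one, and 830 to 1902 when 1 library was left out. The members' 1 call was kept under each of these, ran from 1 to 3 with 1 library left out (3 without Young replicate 2), and was 0 among members within 1000 bp of the TSS, which leaves out the Hist1h2ba peak by construction. The replicate block changed no call of a member. The median log2 fold change of the members ran from -0.20 to 0.00 with 1 library left out. Hist1h3b passed the threshold only without Young replicate 2 (log2 -0.45). The summed log2 ratios of clusters and types moved by less than the spread between replicates under every alternative run. For runs with 1 library left out this follows from the arithmetic of 3 libraries, so it is no sign of stability. In those runs the ratio went from -0.21 to 0.02 for Hist1, -0.16 to 0.03 for Hist2 and -0.17 to 0.11 for H1. Among clusters and types only H2A (-0.23 to -0.03) and H3 (-0.20 to -0.04) stayed negative in all of them. Of the 33 named peaks tested, 19 that were not called changed sign under at least 1 of 14 alternatives, so their direction depends on the setting. With a minimum count of 30 and with thinning, 73 and 72 members could be tested. The weakest named peaks had few counts, such as 6 to 22 at the Hist2h3c1 promoter.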
